A study of Sus scrofa with 9 samples.

Results

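Circular RNAs (circRNAs) of porcine valvular interstitial cells (PVICs) were examined in 9 RNA-seq libraries, with 723 circRNAs that had at least 20 counts summed over all libraries. These were chosen from the 6179 circRNA rows of a deposited count table, which pairs each circRNA number with coordinates on Sscrofa11.1 and gives no gene name. The choice used the sum over all 9 libraries, so the abundance of the 723 as a set is a condition of the choice and not a result. There were 46 circRNAs with a sum of 18 and 40 with 19, just outside the limit, and 30 with 20 and 30 with 21, just inside it.

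PVICs were isolated with collagenase from aortic valve leaflets of wild-type pigs aged 4 to 5 months, after the valve endothelial cells had been scraped off, and were grown in DMEM with serum. The control group (NC) stayed in DMEM. The osteogenic induction medium group (OIM) received sodium dihydrogen phosphate at 2 mmol/L with ascorbic acid and insulin, and the BFGF group received the same medium with basic fibroblast growth factor at 50 ng/mL. Each group had 3 libraries, and the labels give 3 days of treatment whereas the study's methods give 48 h for the RNA. The cells were grown on from primary cultures, and the study's methods give generation 3 or 4 for all experiments. Neither the labels nor the methods say whether the 3 libraries of a group came from separate animals or separate dishes. The p-values below therefore measure the spread between these libraries only.

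A circRNA forms when the spliceosome joins the end of an exon back to the start of the same or an earlier exon, which leaves a closed ring with no cap and no poly-A tail. Rings resist exonucleases and often last longer than the mRNA of the gene they come from, called the host gene here. In sequencing data a ring is recognised by reads that cross this back-splice junction, and because each ring has 1 such junction, its junction count does not grow with its length.

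The back-splice junctions of some circRNAs described below are given here, read from RefSeq Sscrofa11.1 on the strand of the circle. Lower case marks the last 15 bases of the circle and capitals mark its first 15, so the change of case is the joined point. The first pair are the most abundant circles made of a single exon, from NCK2 and GLIS3, the next 3 are VCAN circles that share their first exon, and the following 5 are PICALM circles that share theirs.
circRNA_3720 (NCK2), chr3:49135557-49135742, minus strand: ccctgagtgccaaagACTTCCTATGTTCCT
circRNA_0529 (GLIS3), chr1:217793463-217794582, plus strand: cccaataagtgttcgGTCCCTTATTTCCCG
circRNA_3426 (VCAN), chr2:91768020-91773257, plus strand: caatctatttaccagGTCGAATGAGTGATT
circRNA_3427 (VCAN), chr2:91768020-91778324, plus strand: cactttgtgagcaagGTCGAATGAGTGATT
circRNA_3428 (VCAN), chr2:91768020-91784772, plus strand: gatggcagcacactgGTCGAATGAGTGATT
circRNA_5783 (PICALM), chr9:19883798-19913189, minus strand: ccagatctttcacagACTTAATTCAGTGCA
circRNA_5784 (PICALM), chr9:19885865-19913189, minus strand: ctcaaagttgcagagACTTAATTCAGTGCA
circRNA_5785 (PICALM), chr9:19892116-19913189, minus strand: ttattaacctgttggACTTAATTCAGTGCA
circRNA_5786 (PICALM), chr9:19897760-19913189, minus strand: cttcttgattttaatACTTAATTCAGTGCA
circRNA_5787 (PICALM), chr9:19905675-19913189, minus strand: aaaagtgaaaagaggACTTAATTCAGTGCA

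The next 5 junctions belong to circRNAs that differed between groups in at least 1 comparison. The letters of the first 3 also occur, unbroken, in annotated linear transcripts of the swine leukocyte antigen (SLA) class I genes or of the serum amyloid A (SAA) genes, and those of the last 2, from the genes for hyaluronan synthase 2 (SHAS2 in the annotation) and NSD2, were not found in a linear transcript.
circRNA_5144 (LOC100513601 to SLA-3), chr7:22891788-22941034, plus strand: acactcaggctgcagGCAGTGACAGTGACC
circRNA_3288 (SAA2 to SAA3), chr2:40975935-41025237, plus strand: tgctaaagtgatcagCGATGCCAGAGAGAA
circRNA_5128 (SLA-1 to LOC100515902), chr7:22824834-22868141, plus strand: ccgggacctgggcggGTCCCCACTCCCTGA
circRNA_4004 (SHAS2), chr4:17596492-17597118, plus strand: gtggattatgtacagATGCATTGTGAGAGG
circRNA_5416 (NSD2), chr8:964857-968127, plus strand: acaccaaactcaaagTGCTCTGAGCACGGG

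The libraries held 57075793 to 64723837 gene counts in NC, 57682710 to 67371523 in OIM and 46773376 to 48270827 in BFGF. A level, of a circRNA or a gene, is given below as CPM, its counts per 1000000 gene counts of the same library. The smallest count above 0 was 2 in every library, so a circRNA listed at 0 may have had 0 or 1 read. As a check of the labelled cell type, all 10 interstitial markers were present, with sums of 71089 to 74231 CPM in NC, 68336 to 71750 in OIM and 44361 to 44573 in BFGF, lower in BFGF without overlap. The 5 endothelial markers reached 17.4 to 20.6 in NC, 16.9 to 19.4 in OIM and 33.6 to 37.2 in BFGF, the 3 smooth muscle markers 533 to 536, 606 to 874 and 133 to 143, and the 5 leukocyte markers 11.5 to 14.8, 12.7 to 14.3 and 8.69 to 9.57, lower in BFGF without overlap and with CD3E at 0. Of the 3 cardiomyocyte markers 2 were in the table, TNNT2 at 0 in every library, and their sum was at most 0.684. In bulk libraries fewer cells of a type and less RNA per cell cannot be told apart. The part of these shifts in the circRNA levels was not tested.

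Of the 723 circRNAs, 626 (86.6%) had both ends at exon boundaries of 1 annotated gene. Another 40 had 1 such end, 19 ran between exon boundaries of 2 genes, 12 lay partly outside genes, 7 lay inside a gene away from its exon boundaries and 19 lay outside genes of their own strand. Every one of the 723 was preceded by AG and followed by GT on the strand given in the table, the letters that flank introns at their ends. The same held for all 6179 circRNA rows, so it does not set the 723 apart. Of the 19 outside genes, 14 lay within a gene of the opposite strand, 3 each opposite COL1A1 and the long non-coding RNA LOC102163816 and 1 each opposite COL1A2, THBS1, BGN, FKBP10, NEDD4, CCL2, DNM3 and LOC102158332.

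The span on the genome had a median of 10158 bases and ran from 138 to 91163. The 626 circles with exon structure held a median of 4 exons and a median spliced length of 658.5 bases, and 57 (9.11%) were a single exon with a median length of 914 bases. Among the 4546 circRNAs under 20 counts with exon structure, 3.76% were a single exon and the median was 5 exons. Circles that began at exon 2 numbered 268 (42.8%), against 26% of those under 20 counts. Only 1 of the 626 began at exon 1 and 0 ended at the last exon of the transcript.

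The introns on either side of the circles were long. The upstream intron had a median of 12019 bases and the downstream intron 9846, compared with 7423.5 and 6414.5 in circRNAs under 20 counts and 1404 over 182749 introns of coding genes. Coding sequence alone filled 484 of the 626 circles, and 126 held the start of the coding sequence with part of the 5′ UTR. In 188 of those 484 (38.8%) the spliced length was a multiple of 3, close to the 37.9% of coding circles under 20 counts. These contrasts with rarer circRNAs are descriptions without a test.

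**Figure D1:**
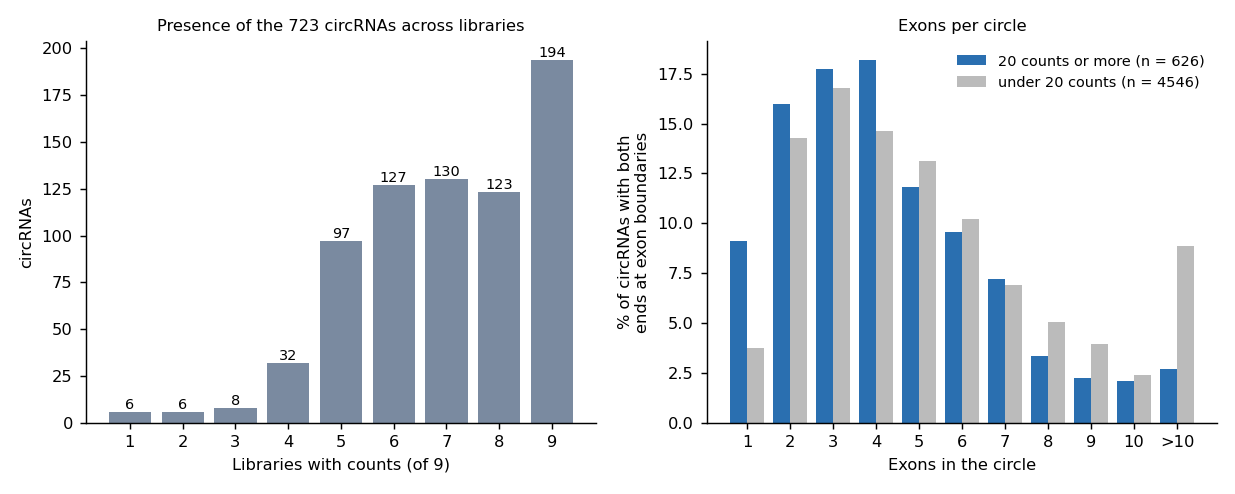
Left, the number of circRNAs (y axis, of 723) with counts in 1 to 9 libraries (x axis). Right, the percentage of circRNAs (y axis) by the number of exons in the circle (x axis) for the 626 circRNAs of at least 20 counts with exon structure and the 4546 under 20 counts; 194 circRNAs were counted in every library, and single-exon circles made up 9.11% and 3.76%.

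Counts were found in all 9 libraries for 194 circRNAs (26.8%), and 6 were counted in a single library. The 723 held 45842 of the 72756 circRNA counts (63.0%), with a median of 38 counts each, and 93 had at least 100. The share at 0 was 15.9 to 23.2% of the 723 in NC libraries, 18.7 to 21% in OIM and 26.3 to 27.8% in BFGF, where the gene totals were also lower. In 131 circRNAs a library stood at 0 while another of the same group had 10 or more. The SD within a group, as a share of the mean, had a median of 0.629 in NC, 0.611 in OIM and 0.866 in BFGF.

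The most abundant circRNA was circRNA_5144, whose ends lie in 2 SLA class I genes, the pig genes for major histocompatibility class I chains. It had 176, 203 and 176 counts in NC, 140, 146 and 174 in OIM and 101, 74 and 74 in BFGF. Its level was 3.01 ± 0.173 CPM in NC, 2.49 ± 0.360 in OIM and 1.75 ± 0.298 in BFGF (mean ± SD, n = 3 each), and every BFGF library lay below every library of the other groups. It was lower in BFGF than in NC by the quasi-likelihood test of edgeR, with p-values adjusted by Benjamini-Hochberg over all circRNAs tested (log2 fold change -0.78 ± 0.19 SE, adjusted p = 0.011), and lost this call without NC replicate 2 (adjusted p = 0.0618), BFGF replicate 2 (0.161) or BFGF replicate 3 (0.0665). Scaled by circRNA totals in place of gene totals, the log2 fold change was -0.62 (adjusted p = 0.113). Against OIM the log2 fold change was -0.51 (adjusted p = 0.61), and it was called with TMM scaling (0.0322), DESeq2 (0.0102) and in a joint fit of circRNAs and genes (0.024).

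Because its 30 junction bases are also found in linear SLA class I transcripts, reads from those mRNAs can match this junction. The genes themselves moved with it, with SLA-1 at 107 ± 6.33, 92.4 ± 4.33 and 74.4 ± 10.9 CPM in NC, OIM and BFGF and a log2 fold change of -0.52 (adjusted p = 1.75e-06) against NC. SLA-3 also fell against NC, by 0.51 on the log2 scale (adjusted p = 1.22e-08). The part of linear reads in circRNA_5144 was not tested.

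The next most abundant circRNA was circRNA_3720, a ring of exon 2 of NCK2 (186 bases, UTR only). NCK2 is an adaptor that links receptor tyrosine kinases to the actin cytoskeleton. Counts were 127, 134 and 124 in NC, 102, 130 and 160 in OIM and 166, 136 and 141 in BFGF, or 2.09 ± 0.123, 2.12 ± 0.468 and 3.11 ± 0.290 CPM. All BFGF libraries lay above all others scaled by gene totals, and the log2 fold change of 0.56 ± 0.19 against OIM had an adjusted p of 0.491, while 0.57 ± 0.19 against NC had 0.223 (edgeR). NCK2 itself was higher in BFGF, at 91.9 ± 1.57 CPM against 55.8 ± 1.86 in OIM (log2 fold change 0.72, adjusted p = 1.43e-11). The ring had 35.3, 37.8 and 33.9 counts per 1000 NCK2 counts in NC, OIM and BFGF, so its level relative to the host differed by -0.17 ± 0.16 on the log2 scale between BFGF and OIM (adjusted p = 0.867). Without OIM replicate 3, its highest OIM library, circRNA_3720 was called higher in BFGF against OIM (adjusted p = 0.00798) and against NC (0.0455). Scaled by circRNA totals it was called in both (adjusted p = 0.0329 and 0.0125). With TMM scaling it was called in neither, with log2 fold changes of 0.33 and 0.35 (adjusted p = 0.567 and 0.483), and BFGF, at 2.61 to 3.09 CPM on that scale, overlapped OIM at 1.88 to 2.80.

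GLIS3, a zinc finger transcription factor, gave circRNA_0529, a ring of its exon 5 (1120 bases) with 94, 107 and 100 counts in NC, 109, 148 and 119 in OIM and 88, 100 and 82 in BFGF. In CPM these were 1.63 ± 0.0297, 2.02 ± 0.159 and 1.90 ± 0.195, with NC below both other groups in every library (with TMM scaling NC, at 1.67 to 1.77, overlapped BFGF at 1.58 to 1.92), and adjusted p-values of 0.908 for OIM against NC and 0.845 for BFGF against NC. The ring of MGA exon 2 (circRNA_0297, a MAX-binding transcription factor gene) and that of SMAD4 exons 2 to 10 (circRNA_0174, the common mediator of TGF-beta and BMP signalling) stood at 1.07 ± 0.275 and 1.03 ± 0.198 CPM in NC. In BFGF they stood at 1 ± 0.179 and 1.06 ± 0.161, with overlapping groups.

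The other circRNAs among the 10 most abundant were circRNA_2842 (461 counts, 1 end at an exon boundary of the protocadherin gene FAT1), circRNA_0516 (455, KIAA2026), circRNA_0803 (436, the long non-coding RNA LOC110255584), circRNA_5142 (408, SLA class I) and circRNA_0975 (354, MICU2, a regulator of mitochondrial calcium uptake). Of these, circRNA_5142 had 65, 70 and 62 counts in NC, 40, 53 and 53 in OIM and 33, 32 and 0 in BFGF (BFGF against NC log2 fold change -1.23, adjusted p = 0.0688, and 0.00701 with TMM scaling). It was called without OIM replicate 3 (adjusted p = 0.04), BFGF replicate 1 (0.00901) or BFGF replicate 2 (0.0249). Its junction, too, occurs in linear SLA class I transcripts. The 10 together held 14.4% of the counts of the 723.

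**Figure D2:**
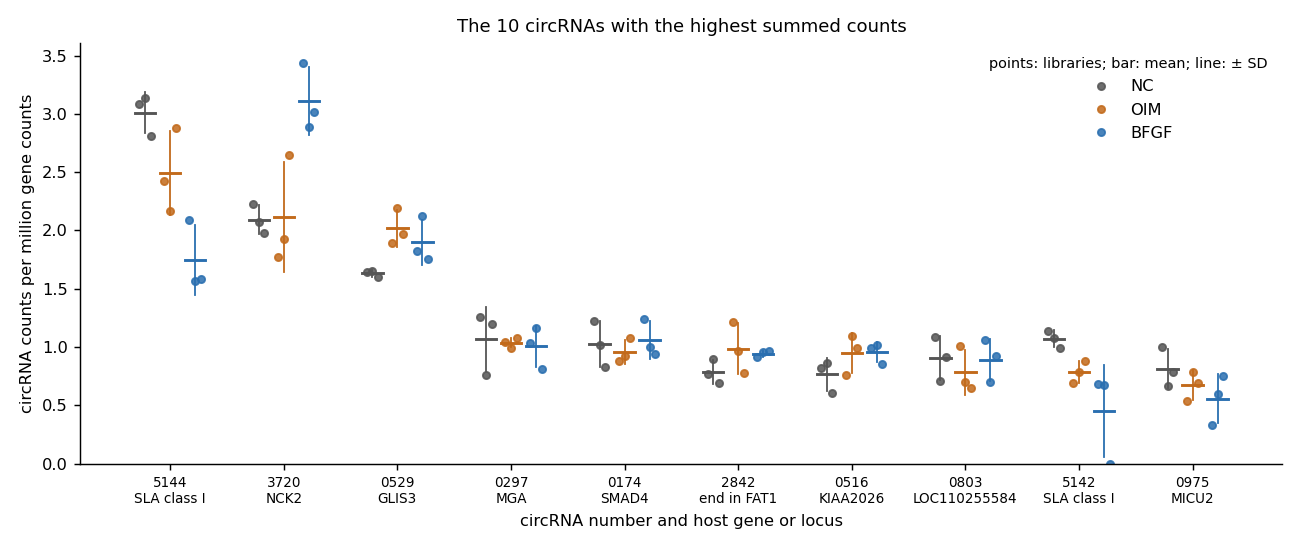
Level in CPM (y axis), of the 10 circRNAs with the highest summed counts (x axis), with 1 point per library, the group mean as a bar and ± SD as a line (n = 3). circRNA_5144 falls from 3.01 in NC to 1.75 in BFGF, circRNA_3720 of NCK2 stands at 2.09 in NC and 3.11 in BFGF, and 1 BFGF library has no count of circRNA_5142.

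Host genes were assigned to 673 of the 723 circRNAs and numbered 492. A single circRNA came from 374 of them and 2 or more from 118. Of the 723, 248 shared an end with another of the set, 194 the first base of the circle and 72 the last. The hosts with the most circRNAs were SLA-1 with 7, PICALM with 6, and NCOR1, KCTD9 and TRPS1 with 5 each. Circles that start at an SLA-1 exon end at exons of SLA-5, LOC100515902 or LOC100513601. Their junction letters also occur in linear SLA class I transcripts, so the rank of SLA-1 rests on an uncertain assignment.

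PICALM encodes a clathrin assembly protein of endocytosis. Its 5 nested circles (circRNA_5783 to circRNA_5787, junctions above) all begin at exon 2, after an intron of 33555 bases, and end at exons 8, 7, 6, 5 and 4, while circRNA_5779 covers exons 9 to 12. The most abundant was circRNA_5786 (exons 2 to 5) with 8, 10 and 15 counts in NC, 13, 15 and 9 in OIM and 10, 17 and 3 in BFGF. The 6 circles summed to 0.609 ± 0.126 CPM in NC, 0.677 ± 0.164 in OIM and 0.664 ± 0.379 in BFGF, and the groups overlapped, while PICALM mRNA was lower in BFGF than in OIM (log2 fold change -0.48, adjusted p = 1.94e-10, within the 0.5 limit for a call).

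VCAN encodes versican, a large chondroitin sulfate proteoglycan of the valve matrix, and its exon 8 is the long exon of a chondroitin sulfate attachment region. The ring of this exon alone (circRNA_3426, 5238 bases) had 31, 28 and 20 counts in NC, 34, 33 and 46 in OIM and 13, 27 and 7 in BFGF. The ring of exons 8 to 12 (circRNA_3428) had 12, 26 and 22 in NC, 14, 15 and 13 in OIM and 2, 5 and 5 in BFGF, with every BFGF library below the others (BFGF against NC log2 fold change -1.90 ± 0.66, adjusted p = 0.319). The ring of exons 8 to 10 (circRNA_3427) was listed at 0 in all BFGF libraries, with 24 counts elsewhere. VCAN mRNA was lower in BFGF than in OIM (log2 fold change -0.77 ± 0.03, adjusted p = 1.84e-14), and relative to it circRNA_3428 differed by -0.64 ± 0.64 (adjusted p = 0.903).

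NCOR1, a corepressor of nuclear receptors, gave 5 circles that share exon 2 and end at exons 3, 4, 5, 6 and 19. Together they stood at 0.347 ± 0.0470 CPM in NC, 0.449 ± 0.224 in OIM and 0.787 ± 0.131 in BFGF, and no single one was called in the fit over 1412, while circRNA_1386 was called higher against NC when circRNAs and genes were fitted together. The 5 circles of KCTD9, a BTB domain protein, start at exon 2, 4 or 7 and end at exon 6 or 9. They summed to 0.674 ± 0.0240 in NC, 0.637 ± 0.0646 in OIM and 0.344 ± 0.0950 in BFGF, and of these circRNA_1976 was called lower in both BFGF comparisons in that joint fit and against OIM without BFGF replicate 1. TRPS1, a zinc finger repressor, gave 5 circles with 21 to 46 counts each, at 0.331 ± 0.122, 0.243 ± 0.00536 and 0.422 ± 0.133 CPM in sum.

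**Figure D3:**
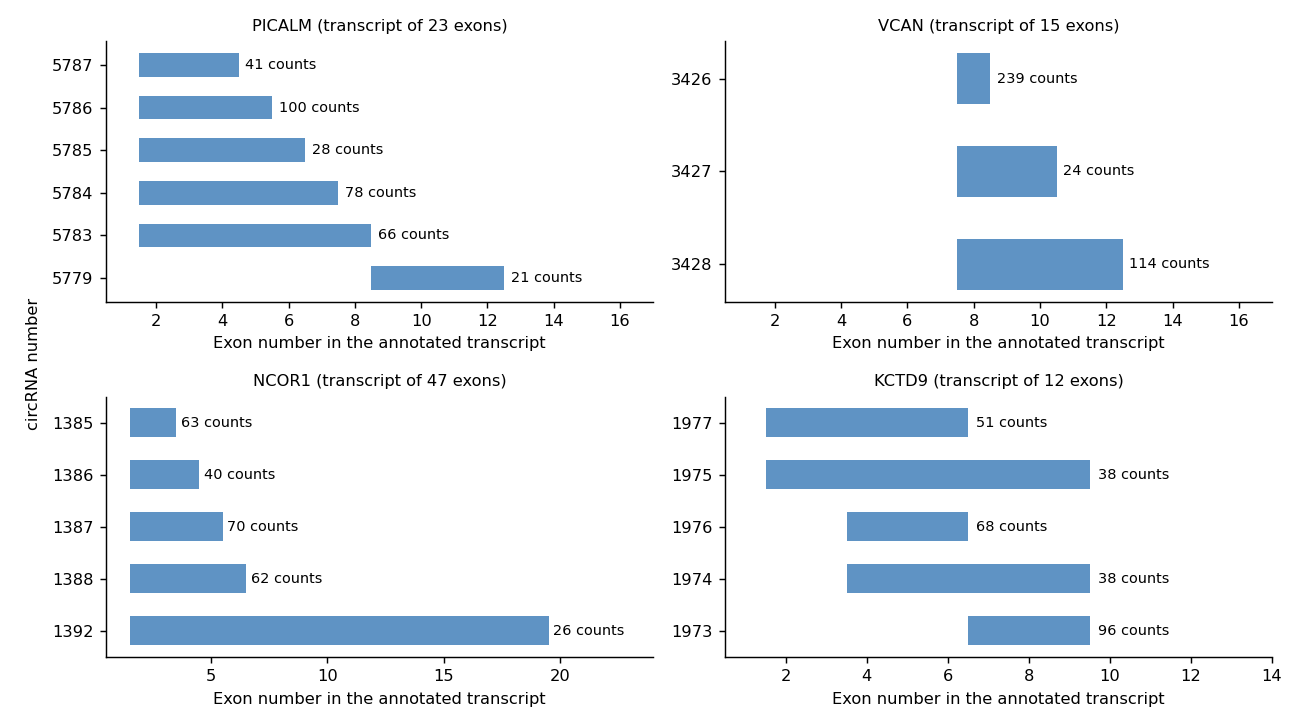
Circles of PICALM, VCAN, NCOR1 and KCTD9 drawn from their first to their last exon (x axis, exon number in the annotated transcript), 1 bar per circRNA (y axis, circRNA number), with the counts summed over 9 libraries beside each. PICALM and NCOR1 circles share exon 2 as their start except circRNA_5779, and all VCAN circles start at exon 8.

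The SLA class I region (chr7:22824834-22957191) held 13 of the 723 circRNAs with 5.00% of their counts. In 12 of them the junction letters occur in annotated linear transcripts with at most 1 mismatch. Over the 723 this was so for 28 (3.87%, with 8.21% of the counts), and several of the others ran between neighbouring annotated genes, such as AKR1C1 with LOC733635, DDX19B with DDX19A, TUBB2B with LOC100624785 and SAA2 with SAA3. Counts at these junctions are uncertain, since reads of linear mRNA can match them, and in 15 circRNAs the 30 junction bases are also those of another circRNA row.

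All 723 circRNAs were tested in a fit over 1412 circRNAs with at least 10 counts, and 658 relative to their host gene in a fit over 1319. A circRNA or gene was called where the adjusted p did not exceed 0.05 and the log2 fold change was 0.5 or more in size. A circRNA that reached 20 counts through 1 group had to be high in it, so the number of calls is read only against the share of all circRNAs called. The median SE of a log2 fold change among the 723 was 1.27 for OIM against NC, 1.28 for BFGF against OIM and 1.30 for BFGF against NC, so that most changes under several fold could not be told from the spread between these libraries.

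For OIM against NC, which asks what the osteogenic medium changed, 2 of the 723 were called, against a background of 0.142% of the 1412 (1 higher and 1 lower, 0.0708% each). circRNA_5143 (SLA class I) was called higher and had 60 counts in OIM replicate 1, 53 in BFGF replicate 3 and 0 in all other libraries. circRNA_1227, 159 bases on the strand opposite COL1A1 (chr12:26380308-26380466), was called lower, with 57, 62 and 0 counts in NC, 0 in all OIM libraries and 16 in BFGF replicate 2 only, so that it reached 20 counts only through NC and its calls against NC are a description. In both, the groups overlapped at 0. The call of circRNA_5143 was lost without OIM replicate 1 (adjusted p = 1) or BFGF replicate 3 (0.203), and that of circRNA_1227 with DESeq2 (adjusted p = 1). These circRNAs and the others that rest on few libraries are named after their values were seen.

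The unadjusted p was under 0.05 for 58 of the 1412, and DESeq2 called 0. Groups did not overlap for 36 circRNAs higher and 38 lower in OIM, against 3.97% and 4.96% of all tested, and for 40 and 33 with TMM scaling, against 4.25% and 4.53%. Relative to the host gene 0 circRNAs were called (0% of 1319), with 50 of 1319 at an unadjusted p under 0.05. The median log2 fold change of the 723 was -0.01, beside 0.00 over all 1412.

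For BFGF against OIM, which asks what the growth factor changed in osteogenic medium, 5 of the 723 were called higher and 1 lower (of the 1412, 0.354% higher and 0.0708% lower, 0.425% in all), and with TMM scaling 3 were higher and 2 lower. When circRNAs and genes were fitted together, 16 of the 1412 circRNAs were called higher and 24 lower, so the balance of directions depends on the fit. The lower one was circRNA_3288, with an end in each of SAA2 and SAA3, genes for acute-phase apolipoproteins. It had 36, 62 and 47 counts in NC, 24, 41 and 33 in OIM and 7, 0 and 6 in BFGF, so all BFGF libraries lay below all others. The log2 fold change was -2.49 ± 0.50 SE against OIM (adjusted p = 0.000231, edgeR), and without BFGF replicate 2 it was -1.92 with an adjusted p of 0.161. With filterByExpr the adjusted p was 0.19, and against NC 0.0715.

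Against NC, circRNA_3288 was lower by a log2 fold change of -3.07 ± 0.50 (adjusted p = 5.17e-07) and kept this call when any 1 library was left out. SAA3 mRNA fell alongside, from 385 ± 11.6 CPM in NC and 285 ± 18 in OIM to 74.8 ± 1.83 in BFGF (log2 fold change -1.93 ± 0.05 against OIM and -2.36 ± 0.05 against NC, adjusted p = 5.64e-18 and 2.26e-19). The junction letters are those of a linear SAA transcript, and the part of linear reads in this count was not tested.

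circRNA_4004 is a ring of exon 2 of SHAS2 (627 bases, coding), whose enzyme makes hyaluronan, a main polymer of the valve matrix. It had 8, 0 and 4 counts in NC, 0, 0 and 3 in OIM and 13, 12 and 13 in BFGF, where every library exceeded every library of the other groups. Against a floor of 3 counts per OIM library it was at least 5.48-fold higher in BFGF. With 12 counts in NC and 3 in OIM it reached 20 counts only through BFGF, so this fold and its call describe where its counts lie and support nothing further. SHAS2 mRNA stood at 34.7 ± 2.46 CPM in NC, 60.4 ± 19.2 in OIM and 466 ± 11.8 in BFGF (log2 fold change against OIM 2.94 ± 0.13, adjusted p = 4.78e-14).

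Relative to SHAS2 mRNA the ring differed by 0.95 ± 1.07 on the log2 scale between BFGF and OIM (adjusted p = 0.943) and by -1.76 ± 0.87 between BFGF and NC (0.594). The call of circRNA_4004 was lost without OIM replicate 1 (adjusted p = 0.704) or 2 (0.343) and without BFGF replicate 1 (0.136), 2 (0.274) or 3 (0.527). It was also lost with TMM scaling (0.108) and DESeq2 (0.249).

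circRNA_5128 (SLA-1 to LOC100515902) was listed at 0 in all NC and OIM libraries and had 11, 13 and 10 counts in BFGF, at least 4.91-fold higher than OIM. Because all of its counts are in BFGF, it reached both count limits only through the group in which it was then called, as did circRNA_3218, circRNA_1272 and circRNA_4172, so the folds and calls of these 4, also relative to the host, describe where their counts lie and support nothing further. SLA-1 mRNA differed the other way, with a log2 fold change of -0.31 (adjusted p = 0.00066). The call was lost on leaving out any OIM library (adjusted p 0.11 to 0.221) or any BFGF library (0.0895 to 0.381) and with TMM scaling (0.0855), and its letters occur in linear SLA-2 transcripts.

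The other 3 called higher were circRNA_1227, circRNA_3218 and circRNA_1272. The call of circRNA_1227 was lost without OIM replicate 1 (adjusted p = 0.704), BFGF replicate 2 (1) or BFGF replicate 3 (0.267) and when only these 2 groups were fitted (0.507). circRNA_3218, 166 bases inside the long non-coding RNA LOC102163816, had 249 counts in BFGF replicate 3 and 0 in the other 8 libraries. circRNA_1272, from CLTC, the clathrin heavy chain gene, had 58 counts in BFGF replicate 2 and 0 elsewhere. Without that 1 library circRNA_3218 and circRNA_1272 were at 0 throughout.

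The unadjusted p was under 0.05 for 78 of the 1412 and DESeq2 called 3. Groups did not overlap for 33 of the 723 higher and 60 lower in BFGF, against 3.26% and 6.37% of all tested, and for 23 and 79 with TMM scaling, against 2.55% and 7.86%. Relative to the host gene, 2 of 658 were called, both higher (0.152% of 1319), circRNA_1272 and circRNA_5128. The median log2 fold change of the 723 was -0.05, beside -0.13 over all 1412, and scaling by TMM lowers each by 0.22.

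For BFGF against NC, 6 of the 723 were called higher and 3 lower (of the 1412, 0.425% higher and 0.212% lower, 0.637% in all), and with TMM scaling 3 were higher and 5 lower. In the joint fit with genes 29 of the 1412 were called higher and 33 lower. Both BFGF comparisons share the BFGF libraries and were fitted together. The lower ones were circRNA_3288, circRNA_5144 and circRNA_1227. Those higher were circRNA_5128 (at least 4.88-fold), circRNA_5143, circRNA_3218, circRNA_1272, circRNA_4172 and circRNA_5416. circRNA_4172, from PEA15, a death effector domain protein, had all of its 31 counts in BFGF replicate 2. Without the library that held its counts, circRNA_5143, circRNA_3218, circRNA_1272 and circRNA_4172 were each at 0 in BFGF, and circRNA_1227 was not called without NC replicate 1 (adjusted p = 0.588), NC replicate 2 (0.388), OIM replicate 1 (0.454), BFGF replicate 1 (0.251) or BFGF replicate 3 (0.657). The call of circRNA_5128 against NC was lost without any NC library (adjusted p 0.071 to 0.102), without any BFGF library (0.0777 to 0.274) and with TMM scaling (0.0582).

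circRNA_5416 is a ring of exons 2 and 3 of NSD2 (786 bases), which encodes a histone methyltransferase. It had 0, 4 and 3 counts in NC, 4, 10 and 14 in OIM and 12, 14 and 17 in BFGF, with no overlap between any of the groups once scaled to CPM by gene totals, while with TMM scaling BFGF (0.224 to 0.327) overlapped OIM (0.0738 to 0.245). The log2 fold change against NC was 2.94 ± 0.77 SE (adjusted p = 0.0256, edgeR), and against OIM it was 1 ± 0.67 (adjusted p = 0.622). NSD2 mRNA was 73.2 ± 1.93 CPM in NC, 85.2 ± 11.7 in OIM and 237 ± 10.5 in BFGF (log2 fold change 1.70 ± 0.07 against NC, adjusted p = 6.66e-15).

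Relative to NSD2 mRNA, circRNA_5416 differed by 1.29 ± 0.76 (adjusted p = 0.594). The call against NC was lost on leaving out any NC library (adjusted p 0.0618 to 0.332), OIM replicate 1 (0.057), BFGF replicate 2 (0.121) or BFGF replicate 3 (0.427). It was also lost with TMM scaling (0.0733), DESeq2 (0.142) and filterByExpr (0.0715). The larger NSD2 circle of exons 2 to 9, circRNA_5418, had 19, 12 and 10 counts in NC, 22, 23 and 18 in OIM and 25, 25 and 12 in BFGF (adjusted p = 0.545).

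The unadjusted p was under 0.05 for 92 of the 1412 in this comparison and DESeq2 called 3. Groups did not overlap for 39 of the 723 higher and 52 lower in BFGF, against 3.82% and 6.02% of all tested, and for 31 and 76 with TMM scaling, against 3.26% and 7.79%. Relative to the host gene 2 were called, both higher, again circRNA_1272 and circRNA_5128 (0.152% of 1319). The median log2 fold change of the 723 was -0.15, beside -0.25 over all 1412.

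**Figure D4:**
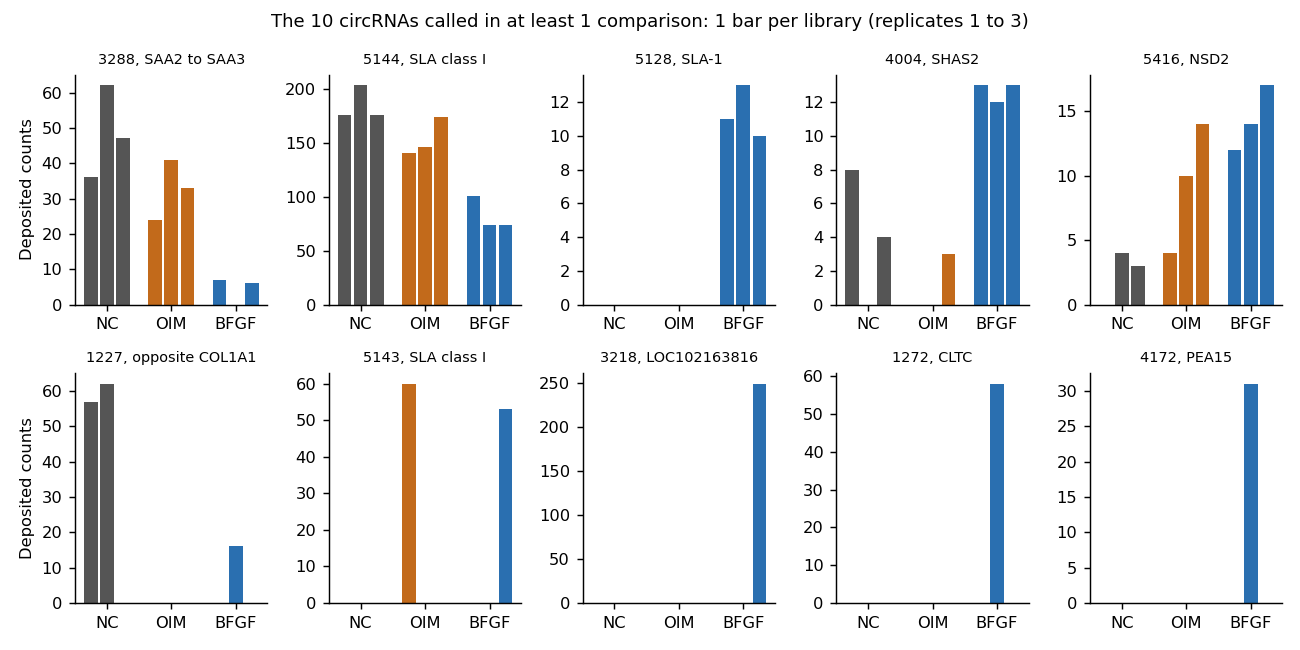
Deposited counts (y axis) of the 10 circRNAs called in at least 1 comparison, with 1 bar per library (x axis, replicates 1 to 3 of NC, OIM and BFGF). The upper 5 had counts in every library of the higher group, and circRNA_3218 (249), circRNA_1272 (58) and circRNA_4172 (31) had theirs in 1 BFGF library.

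When only the 194 circRNAs with counts in all 9 libraries were fitted, a choice made after the data were seen, 0 were called for OIM against NC, 2 for BFGF against OIM and 5 for BFGF against NC. circRNA_3720 of NCK2 was then higher in BFGF in both comparisons (adjusted p = 0.00923 and 0.00285), and circRNA_5144 was lower in both. Lower against NC were also circRNA_3428 of VCAN (adjusted p = 0.0295), circRNA_2595 of KANSL1L, with 9, 21 and 11 counts in NC and 2, 2 and 3 in BFGF (0.0407), and circRNA_4632 of PAWR, a pro-apoptotic regulator, with 13, 19 and 16 in NC and 2, 4 and 3 in BFGF (0.0407). Relative to the host, circRNA_1557 of GNL3 (a nucleolar GTPase), circRNA_4963 of TAF4B (a transcription factor subunit) and circRNA_5969 of EZH2 (a histone methyltransferase) were lower in BFGF than in OIM in this fit (adjusted p = 0.0239, 0.0421 and 0.0421). Against NC, circRNA_1557 and circRNA_4963 were also called lower relative to the host, and circRNA_5969 was not called. Of these 8 circRNAs, those other than circRNA_5144 were not among the calls counted above in the fits over 1412 and 1319. Under other settings over 1412, circRNA_3720 was called with circRNA totals, without OIM replicate 3 and in the joint fit of circRNAs and genes, in both BFGF comparisons, and with robust dispersion against NC, and circRNA_2595, circRNA_3428 and circRNA_4632 were called against NC in the joint fit.

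For these 3 the mRNA was called higher in BFGF than in OIM, with log2 fold changes of 1.12 for GNL3, 1 for TAF4B and 1.62 for EZH2, while those of the rings were -0.84, -0.39 and -0.38 (adjusted p = 0.681, 1 and 1). EZH2 mRNA stood at 9.86 ± 1.56 CPM in OIM and 30.4 ± 1.26 in BFGF, while circRNA_5969 had 5, 16 and 7 counts in OIM and 3, 3 and 10 in BFGF. GNL3 mRNA stood at 30.3 ± 3.53 and 65.7 ± 1.15, and circRNA_1557 had 17, 17 and 13 counts in OIM and 7, 11 and 2 in BFGF. circRNA_4963 of TAF4B fell from 21.7 to 8.41 counts per 1000 host counts.

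Host genes of the 723 that could be tested numbered 481. In OIM against NC 5 of them were called (2.39% of all 13662 genes tested), against 92 higher and 48 lower in BFGF against OIM (27.3% and 12.4% of genes) and 105 higher and 48 lower in BFGF against NC (28.8% and 13.5%). With TMM scaling 17.7% of all genes were called higher and 18.4% lower against OIM, and 18.9% and 20% against NC (1.49% and 0.864% for OIM against NC). Of the circRNAs counted in all 9 libraries, 180 had a tested host. In BFGF against OIM, 24 of 30 circRNAs with a host called higher had a log2 fold change above 0, with a median of 0.24 where the hosts had 0.73, and with a host not called 71 of 140 were above 0. TMM scaling lowers the log2 fold changes of circRNAs and hosts alike by 0.22. On that scale, with the same hosts, 16 of 30 were above 0 with a median of 0.02 where the hosts had 0.50, and 52 of 140 with a host not called. With a host called lower, 9 of 10 circRNAs were below 0 (10 of 10 with TMM scaling), with a median of -0.86 beside -0.78 for the hosts (-1.08 and -1 with TMM scaling).

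Across the 180 circRNAs the log2 fold change of ring and host had a Pearson r of 0.30 (Spearman 0.31) in BFGF against OIM, 0.37 (0.37) in BFGF against NC and 0.23 (0.21) in OIM against NC. These describe genes, which are not independent replicates, and ring and host were scaled by the same library totals.

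**Figure D5:**
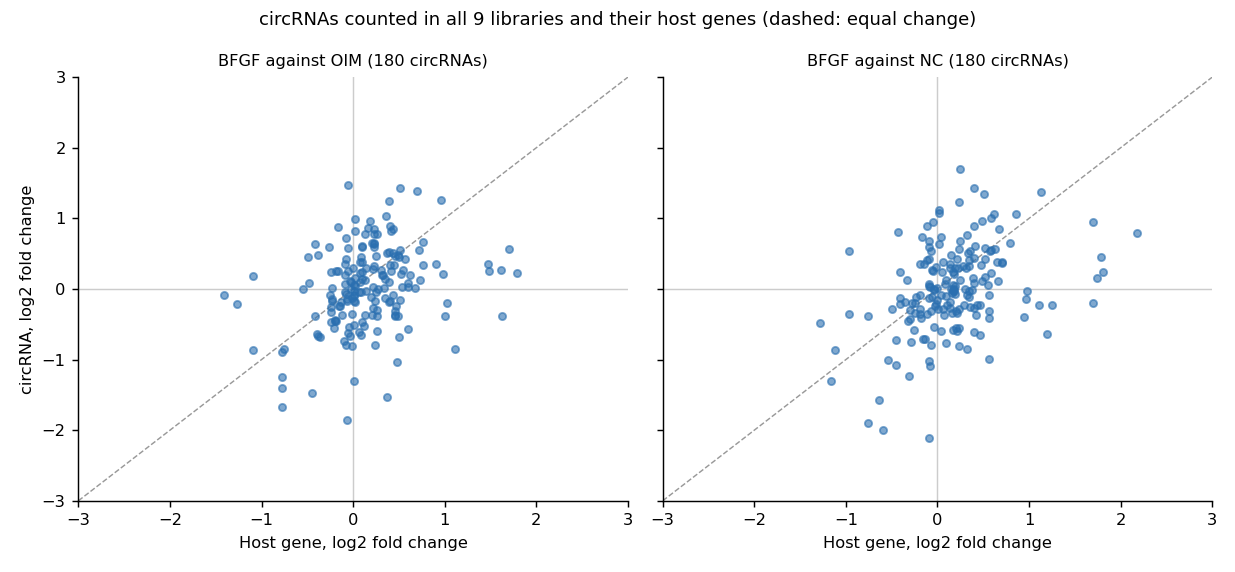
Log2 fold change of the circRNA (y axis) against that of its host gene (x axis) for 180 circRNAs counted in all 9 libraries, for BFGF against OIM (left) and BFGF against NC (right); the dashed line marks equal change. In BFGF against OIM 24 of the 30 circles with a host called higher lie above 0 (16 with TMM scaling) and 9 of the 10 with a host called lower lie below it, and the Pearson r is 0.30 and 0.37.

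The sum over all 6179 circRNAs was 146, 155 and 142 CPM in NC, 140, 147 and 145 in OIM and 132, 133 and 129 in BFGF. All BFGF libraries were below all others, with a mean of 132 ± 2.16 against 144 ± 3.92 in OIM and 148 ± 6.43 in NC (exact two-sided permutation test of the means, p = 0.1 for each, the smallest that 3 against 3 allows). OIM and NC overlapped (exact permutation p = 0.5). Over the 723 alone the means were 92.1 ± 4.07 in NC, 88.2 ± 1.28 in OIM and 88.1 ± 0.480 in BFGF (exact permutation p = 0.9 for BFGF against OIM), and on this scale the 723 differed by -0.06 of the -12.3 CPM between BFGF and OIM. With TMM scaling the sum over all circRNAs differed by -32.6 CPM and that over the 723 by -13.3 (79.5 ± 0.660 in BFGF and 92.8 ± 2.33 in OIM, exact permutation p = 0.1), so how much of the difference the 723 hold depends on the scaling. The sums over the 723 were added after the data were seen. BFGF libraries had the fewest gene counts and no circRNA is listed with 1 count, and the part of depth in this difference was not tested.

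A list of 38 genes known as hosts of conserved mammalian circRNAs held 13 with at least 1 of the 723 circRNAs, 23 in all, while 16 more had only rarer ones. FOXO3, a forkhead transcription factor, gave circRNA_0117, a ring of exon 3 (1436 bases), with 7, 26 and 6 counts in NC, 9, 8 and 4 in OIM and 0, 0 and 2 in BFGF. BFGF lay below the other groups in every library and at or under the floor of 3 counts, so that NC was at least 3.27-fold above it, or at least 1.73-fold without NC replicate 2, with an adjusted p of 0.105 (0.0476 with TMM scaling). FOXO3 mRNA was lower in BFGF as well, at 54.0 ± 3.24 CPM against 119 ± 3.57 in OIM (adjusted p = 1.63e-14).

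HIPK3, a homeodomain-interacting kinase, gave circRNA_3264, a ring of exon 2 (1102 bases) with 0, 6 and 6 counts in NC, 3, 12 and 16 in OIM and 7, 15 and 0 in BFGF. AMOTL1, an angiomotin of cell junctions, gave circRNA_5812 with 22, 29 and 24 counts in NC, 0, 21 and 12 in OIM and 18, 16 and 12 in BFGF (OIM against NC adjusted p = 0.699). The single circRNAs of ANKRD17, FBXW7, a ubiquitin ligase subunit, ARHGAP10, a GTPase-activating protein, ZNF532, CDYL and ZNF292 had 27 to 142 counts, and BNC2 and ITCH gave 2 each with 24 to 61. None of the 23 was called in the fit over 1412 circRNAs. For BFGF against NC, circRNA_0117 was called with TMM scaling and when circRNAs and genes were fitted together (adjusted p = 0.00975, edgeR), and circRNA_3428 of VCAN in that joint fit (0.024) and among the circRNAs counted in all 9 libraries (0.0295). circRNA_5586 of ARHGAP10 had 14, 21 and 16 counts in NC, 15, 10 and 15 in OIM and 8, 2 and 3 in BFGF, with a log2 fold change of -1.57 ± 0.67 against NC (adjusted p = 0.545).

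Genes known to act on circRNA formation, nuclear export, m6A marking or turnover were listed, 32 in all, and 29 could be tested. None was called in OIM against NC (5 at an unadjusted p under 0.05, DESeq2 also 0). In BFGF against OIM 15 rose and 0 fell (27.3% of all genes were called higher), 7 of 11 for formation, 2 of 3 for export, 0 of 4 for m6A and 6 of 9 for turnover. In BFGF against NC 14 rose and 0 fell (28.8% of genes). With TMM scaling 6 and 4 of the 29 were called higher and 0 lower in these comparisons, where 17.7% and 18.9% of all genes were called higher.

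The formation factor ILF2, a subunit of a double-stranded RNA-binding complex, was at 127, 122 and 127 CPM in NC, 122, 140 and 124 in OIM and 264, 251 and 260 in BFGF. Every BFGF library lay above the others, and the log2 fold change against OIM was 1.01 ± 0.05 (adjusted p = 1.2e-13). QKI, which binds introns beside many circles, had 468 to 483 in BFGF and 519 to 547 in OIM (log2 fold change -0.17, within the limit). The opposing factors ADAR and DHX9, which edit or unwind paired introns, were at -0.05 and 0.40 and were not called.

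Of the export factors, the helicase DDX39A rose most, from 30.1 ± 1.93 CPM in OIM to 90.1 ± 7.58 in BFGF (log2 fold change 1.58 ± 0.07, adjusted p = 4.84e-14), and XPO4 rose by 0.76 ± 0.08 (5.32e-08). Of the turnover genes, AGO2, G3BP1, DIS3, POP1 and RPP30 rose by 0.54 to 0.78 on the log2 scale. With TMM scaling ILF2, DDX39A, XPO4 and POP1 were called against OIM as well, and AGO2, G3BP1, DIS3 and RPP30 were not. These genes were measured beside the circRNAs in the same libraries, and no relation between them and circRNA levels was tested.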

How the data were processed

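PVIC cultures in DMEM (NC), osteogenic medium (OIM) and osteogenic medium with bFGF (BFGF) gave 9 libraries of total RNA. The authors deposited 1 table that was not normalized, with whole-number counts for genes and circRNAs and estimated counts for non-coding transcripts. The study's methods name Cutadapt and STAR with the susScr11 genome, and the submitters' processing notes name Trimmomatic, HISAT2, StringTie and Sscrofa11.1. The program that called circRNAs, and what its counts hold, are not given in the sources used here. The study's methods name poly-A selection, while the labels name ribosomal RNA depletion, and circRNAs lack poly-A tails.

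The members and gene lists were chosen with earlier results of these data known. CircRNAs with at least 20 summed counts were described, and those with at least 10 (1412) were tested. The 9888 non-coding transcript features and 19 empty unnamed columns were not used. Coordinates were matched to RefSeq exons on Sscrofa11.1, and the 30 junction bases were searched in annotated transcripts with at most 1 mismatch. Library size was the gene count total of each library, 46773376 to 67371523. Intervals and floors of 3 counts per library cover counting error only.

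Tests used edgeR's quasi-likelihood method (edgeR 4.0.16, R 4.3.3) over all 9 libraries with no covariate and Benjamini-Hochberg adjustment. Calls required adjusted p-values not above 0.05 and log2 fold changes of 0.5 or more in size. Tests relative to the host used the host gene's counts plus 0.5 as an offset, and host counts include reads of the circular exons. Sums were compared by exact permutation tests (scipy 1.17.1). Each fit was run on simulated data, but the circRNA counts were simulated with a smaller spread than these libraries show. That run therefore cannot show how the circRNA fits perform on these data. Alternatives were TMM scaling, scaling by circRNA totals, DESeq2 1.42.0, limma 3.58.1, other filters, a replicate block and leaving out each library. Sequences were read with pysam 0.24.0. Named circRNAs were the 10 with the most counts, those of the 5 hosts with the most members, up to 5 called per comparison and direction with at least 5 counts on average in the higher group and no overlap, and those of known conserved hosts. The values of some listed genes are not reported here.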

Additional observations from a re-analysis of the deposited data

How the results depend on the processing

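Over 36 results for named circRNAs and 660 alternatives, 502 kept their side of the threshold, 126 lost the call, 32 gained one and 0 reversed. The 660 leave out fits that filtered a circRNA away or gave it no adjusted p, so calls that ended in this way are not among the 126. In the order OIM against NC, BFGF against OIM and BFGF against NC, the number of circRNAs called was 2, 6 and 9. It became 0, 3 and 3 with DESeq2 and 0, 0 and 1 with edgeR's filterByExpr. Choices made after the data were seen gave 0, 1 and 4 with robust dispersion. They gave 0, 1 and 1 among circRNAs counted in all libraries of a group. Among circRNAs counted in all 9 libraries they gave 0, 2 and 5. Fitting circRNAs and genes together called 40 (16 higher, 24 lower) and 62 (29 and 33) circRNAs in the BFGF comparisons. Without junctions found in linear transcripts, also a choice made after the data were seen, 5 were called for BFGF against NC, 4 of the 9 and circRNA_3720. Leaving out 1 library gave 1 to 3, 1 to 9 and 2 to 13 calls.

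Relative to the host gene the counts were 0, 2 and 2, with 0 and 0 in the BFGF comparisons under filterByExpr, 1 for BFGF against NC with limma, and 0 to 1, 0 to 4 and 1 to 3 without 1 library. Same-numbered libraries did not deviate together (correlations of -0.032 to 0.004), so the numbers do not pair the samples. With the replicate number as a block, 3, 4 and 8 circRNAs were called, and 1 and 1 relative to the host in the BFGF comparisons. Factor genes called in the BFGF comparisons were 15 and 14, with 6 and 4 under TMM scaling and 6 and 5 with DESeq2, and 5, 25 and 26 over all comparisons with no fold limit. Sums of circRNA counts kept their direction, at -6.54 to -0.28, -14.5 to -10.7 and -18.8 to -12.5 CPM without 1 library. The common biological coefficient of variation was 1.01 for circRNAs and 0.0616 for genes, which limits what these counts can show. The cause of these changes was not tested.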
